A study of Danio rerio with 6 samples.

Results

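Chemokines are small secreted proteins that guide the migration of leukocytes, and they act through G protein-coupled receptors named after the ligand class they bind (CXC, CC or XC). Atypical chemokine receptors bind the same ligands, do not signal through G proteins in the usual way and clear ligand from the tissue. In fish the kidney holds the blood-forming marrow between the nephrons, so that chemokine ligands of stroma and epithelium and the receptors of blood cells are read from the same RNA.

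The genes described are the rows of the deposited count files whose symbol begins with cxcl, cxcr, ccl or ccr and a digit, with xcr1 or with ackr. This rule found 78 rows. The row for cxcl12b and the row listed as CXCL12, a symbol that RefSeq gives as a synonym of cxcl12a, were left out. That leaves 76 members of 32266 genes, comprising 23 receptors of leukocytes, 48 ligands (15 CXC and 33 CC) and 5 atypical receptors. For 14 of the members the symbol table gives the same name to a pair of rows, such as CXCR4, so these are told apart by their Ensembl identifier and not by a zebrafish a or b name.

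All fish were of the EK strain, about 2.5 months old. One group was wild type and the other was homozygous for the del25 (hg97) deletion allele of runx1, a transcription factor gene of blood formation, and the 2 genotypes were siblings. Each group had 3 libraries, and each library was made from a pool of 3 surgically dissected kidneys (TruSeq RNA kit, paired-end), so a value is an average over fish and over all cells of the organ. The sex of the fish was not given.

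The libraries held between 16147770 and 30577328 expected counts. Values are given as CPM, the depth-scaled count with library sizes adjusted by TMM, and CPM is not corrected for transcript length, so levels are compared between libraries and not between genes. The mutated gene itself had 8, 5 and 7 counts in the wild type pools and 0, 5 and 5 in the runx1 null pools, too few to check single labels. Kidney tubule markers (7 matched of 10 fixed) were present in every pool, at a summed 206 to 1590 CPM in wild type against 891 to 1920 in runx1 null. Erythroid markers (7 matched of 10 fixed) summed to 68600 to 122000 CPM in wild type against 54900 to 66000 in runx1 null. These sums did not overlap, and 7 of the 7 markers had a negative log2 fold change. Only 1 of the 7, the globin gene hbaa1, had no overlap between the pools, at 58100 to 89900 CPM against 43300 to 54100 CPM. The mean log2 CPM over the 7 was 11.84, 10.61 and 10.49 in wild type against 10.63, 10.86 and 10.43 in runx1 null. Those means overlapped. Wild type pool 1 stood apart, with the lowest tubule sum and the highest erythroid sum (122000 CPM against 54900 to 72900 CPM in the other 5 pools). It was also the lowest of the 6 pools for 17 of the 42 tested members.

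Of the 76 members, 42 passed the expression filter and were tested. These were 15 leukocyte receptors, 23 ligands and 4 atypical receptors. The filter asks for 0.374 CPM (on unscaled library sizes) in at least 3 libraries; 32 of the 42 reached it in all 6 libraries, and 5 reached it in all 3 runx1 null libraries but in fewer than 3 of wild type. In the edgeR quasi-likelihood test with Benjamini-Hochberg adjustment over all 18864 genes tested, 0 of the 42 passed an adjusted p-value of 0.05, and the background was likewise 0% of all genes. The smallest edgeR adjusted p-value among the members was 0.766, for ccl19a.1. An unadjusted p-value under 0.05 was reached by 7 members, against 5.23% of all genes. These were 2 leukocyte receptors that were lower in runx1 null (background in that direction 2.66%), and 4 ligands and 1 atypical receptor that were higher (background 2.57%). Of these 5, ccl20a.3 and ACKR4 (ENSDARG00000078729) reached the filter's minimum in 3 null libraries and 1 wild type library, so they passed it only through the group in which they were high. In the DESeq2 Wald test, 3 of the 42 passed (background 0.557%), namely cxcr3.2, ccl19a.1 and ccl34b.8. With 3 pools against 3, a two-sided exact permutation test of a single gene cannot give a p-value under 0.1. The pools of a genotype are different fish, but sibling pools may share clutches or tanks that the labels do not give.

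Most tested ligands had higher values in runx1 null, while the leukocyte receptors lay on both sides of 0; the difference between the roles was not tested. Of the 23 tested ligands, 19 had a positive log2 fold change (runx1 null against wild type) and 4 a negative one, with a median of 0.60. Wild type pool 1 was the lowest of the 6 pools for 11 of the 23. Without that pool 27 ligands were tested, of which 19 were positive, with a median of 0.46; of the 23 above, 18 were positive. Of the 15 tested leukocyte receptors, 9 were positive and 6 negative, with a median of 0.30. The median over all 18864 genes was -0.03, and 9045 of these were positive. The runx1 null pools all lay above the wild type pools for 4 ligands and all below for 0 ligands, where the background is 6.24% of all genes in each direction. Among the leukocyte receptors, 2 had all runx1 null pools below wild type and 2 had them all above. These counts include ccl20a.3 and, among the receptors, ccr11.1, which reached the filter's minimum in all null libraries but not in all wild type ones.

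**Figure D1:**
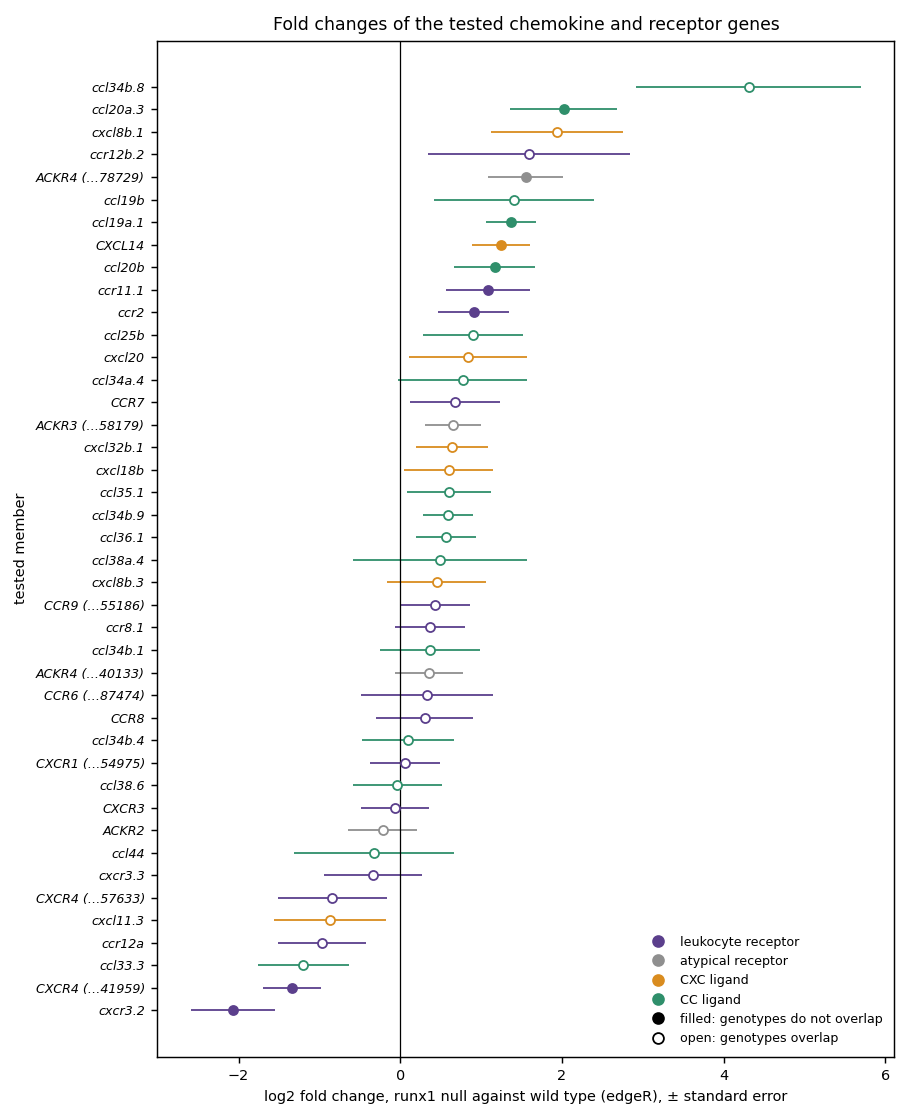
The log2 fold change of each of the 42 tested members (runx1 null against wild type, edgeR) is drawn with its standard error, coloured by role; filled points have no overlap between the 3 pools of each genotype, and identifiers are shortened to their last digits. cxcr3.2, at -2.07, and the CXCR4 row ENSDARG00000041959, at -1.34, stand at the lower end and most ligands lie to the right of 0.

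Among the leukocyte receptors, those with lower values in every runx1 null pool were CXCR4 and cxcr3.2. CXCR4 is the receptor of the stromal chemokine Cxcl12, which retains stem cells and neutrophils in the marrow. CXCR4 (ENSDARG00000041959) measured 36.3, 87.1 and 62.0 CPM in wild type against 23.5, 21.1 and 28.6 CPM in runx1 null. The wild type pools thus spread over a wider range than the null pools, and the groups did not overlap. Its means were 61.8 ± 25.4 and 24.4 ± 3.80 CPM (SD, n = 3; log2 fold change -1.34, SE 0.36, edgeR adjusted p 0.811), and the difference did not pass the threshold. The fold change stayed between -1.62 and -1.01 when each library was left out in turn. In bulk tissue, fewer cells of a type and less RNA per cell cannot be told apart.

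The second row named CXCR4 (ENSDARG00000057633) was at 1.30, 1.74 and 1.76 CPM in wild type against 0.898, 0.237 and 1.56 in runx1 null. Its highest null pool lay above the lowest wild type pool. The log2 fold change was -0.84 (SE 0.67, edgeR adjusted p 0.811). It was -1.53 without null pool 3 and -0.41 without null pool 2.

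The CXCR3 group has 3 genes in zebrafish, whose receptors bind Cxcl11 ligands. In zebrafish larvae cxcr3.2 guides macrophages to sites of infection, and cxcr3.3 has been described there as its counterpart that acts by scavenging ligand. cxcr3.2 (ENSDARG00000041041) was at 7.04, 14.2 and 10.1 CPM in wild type against 1.08, 2.94 and 3.41 in runx1 null. The genotypes did not overlap, and the lowest wild type value was about the double of the highest null value. The means were 10.4 ± 3.57 and 2.48 ± 1.23 CPM (SD, n = 3), 4.19-fold apart. Its log2 fold change of -2.07 (SE 0.52) was the lowest among the tested members, with an edgeR adjusted p of 0.811 and a DESeq2 adjusted p of 0.0335. With each library omitted in turn, it stayed between -2.36 and -1.72.

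cxcr3.3, which lies next to cxcr3.2 in the RefSeq gene order (assembly GRCz12tu), showed no such gap. It was at 47.9, 16 and 10.0 CPM in wild type against 27.5, 17.8 and 13.3 in runx1 null, and the groups overlapped. Its log2 fold change, -0.34 (SE 0.61, edgeR adjusted p 0.884), rested on wild type pool 1 and was 0.57 without that pool. The row named CXCR3 (ENSDARG00000007358) was at 2.45 ± 0.543 CPM in wild type against 2.33 ± 0.744 in runx1 null (SD, n = 3; log2 fold change -0.07, SE 0.42, edgeR adjusted p 0.969). The difference between cxcr3.2 and its relatives was not tested.

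**Figure D2:**
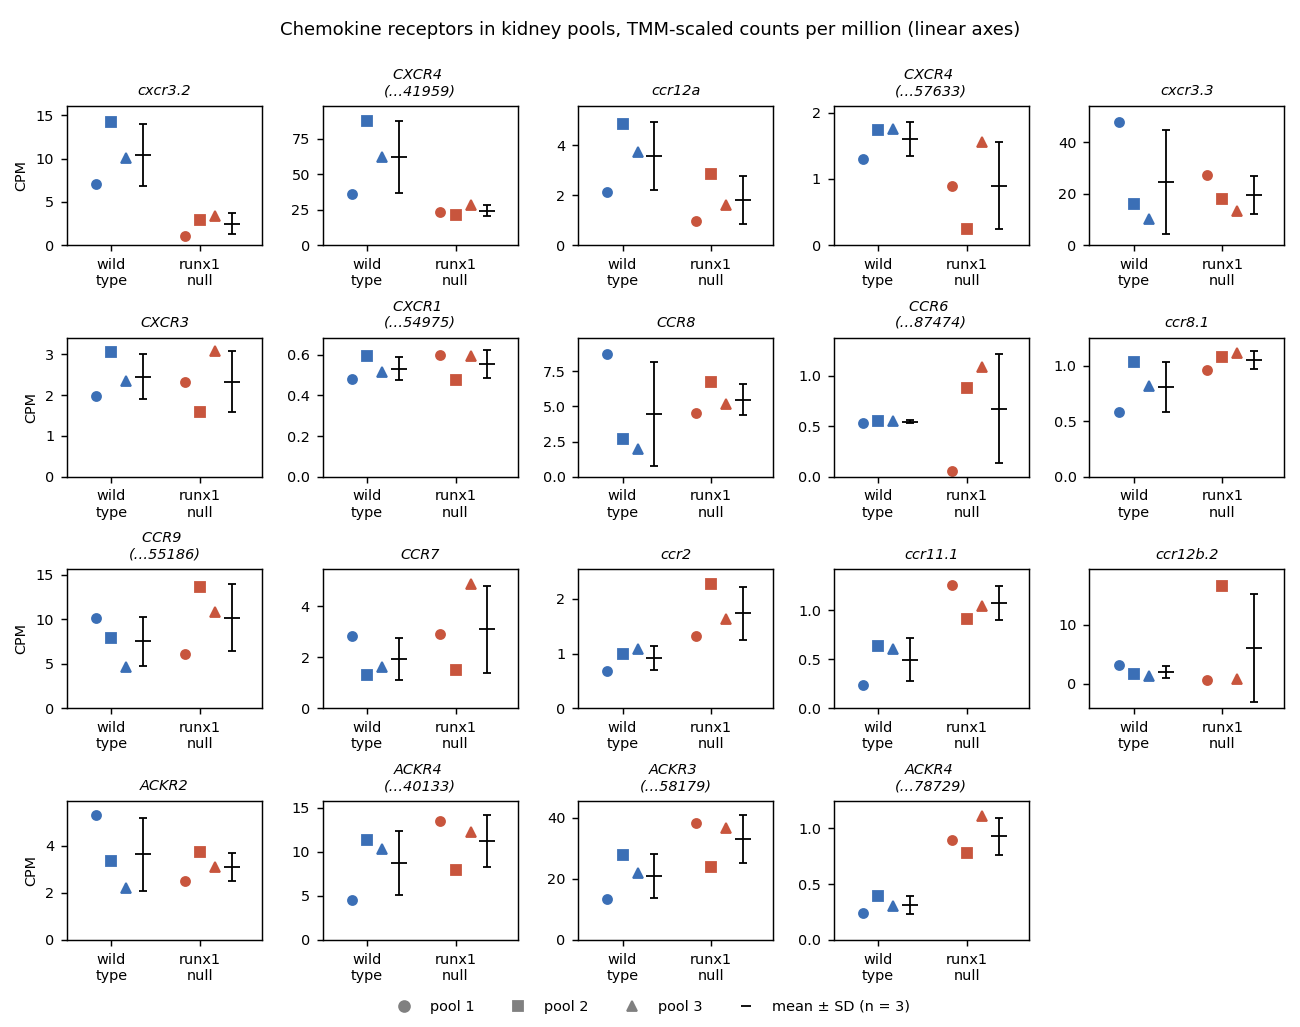
TMM-scaled CPM (linear axes) of the 15 tested leukocyte receptors and, in the last row, the 4 tested atypical receptors, with 1 symbol per pool and the mean ± SD of the 3 pools of each genotype in black. The null pools of cxcr3.2 lie at 1.08 to 3.41 CPM below the wild type pools at 7.04 to 14.2 CPM, and ccr12b.2 shows 1 null pool at 16.6 CPM far above the other 5.

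Marker RNA of the cells that could carry these receptors was measured in the same libraries. Macrophage markers (9 matched of 12 fixed; 7 of 9 lower) summed to 289 to 417 CPM in wild type against 255 to 383 in runx1 null, and overlapped. Neutrophil markers (9 of 12, 8 of 9 lower) summed to 428 to 1860 CPM and 280 to 546 CPM. They overlapped because null pool 2, at 546 CPM, lay above wild type pool 1, at 428 CPM. The marker mmp9 made up 229 CPM of that null pool 2 sum and was at 3.11 to 28.2 CPM in the other pools. The mean log2 CPM over the markers was 4.72, 6.58 and 5.62 in wild type against 3.93, 4.70 and 4.07 in runx1 null. These means did not overlap, though wild type pool 1, at 4.72, was barely above null pool 2, at 4.70. The lysozyme gene lyz, also among the markers, was at 163 to 953 CPM against 31.3 to 96.3 CPM, without overlap. B lymphocyte markers (10 of 12) summed to 13.2 to 53.9 CPM in wild type against 8.62 to 124 in runx1 null; of the 6 tested, 5 had a negative log2 fold change. The other was ighm, the immunoglobulin heavy chain gene, at 5.26 to 21 CPM in wild type. In runx1 null ighm was at 2.33, 0.981 and 114 CPM, so that it made up most of the highest sum. Of the 5 negative genes, rag1 and igic1s1 passed the filter only through wild type, the group in which they were high. In runx1 null they were at 0.0338 to 0.185 and 0.0338 to 0.445 CPM. cd79b and pax5 had 0 counts in null pools 1 and 2. Thrombocyte markers (6 of 10) summed to 643 to 1330 CPM and 476 to 570 CPM, without overlap. Hematopoietic progenitor markers (10 of 10) summed to 450 to 1100 CPM and 450 to 616 CPM, and overlapped. Of the 9 tested, 5 had a positive log2 fold change and 4 a negative one. The mean log2 CPM over these 9 was 3.74, 3.86 and 3.55 in wild type against 4.18, 4.12 and 4.15 in runx1 null. The progenitor means thus did not overlap and were higher in runx1 null. Only 1 of the 9 genes, gata2b, had no overlap by itself. It was at 0.0482 to 0.198 CPM in wild type against 1.62 to 2.52 CPM in runx1 null. gata2b passed the filter only through the null pools, where it was high. How far the difference of the means rests on gata2b was not tested. T and NK lymphocyte markers (10 of 12, 7 of 8 tested higher) summed to 11.3 to 14.2 CPM and 15.8 to 25.3 CPM. Those sums were higher in runx1 null, without overlap. The usual macrophage and neutrophil markers mpeg1.1, mfap4 and mpx were among the names that matched no single row. The part that these cell types have in the lower CXCR4 and cxcr3.2 values was not tested.

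Receptors of neutrophil attractants were near the lower limit of what these libraries hold. Cxcr1 and Cxcr2 are the receptors of Cxcl8 on neutrophils, and RefSeq lists both for zebrafish, while the symbol table names both rows CXCR1. The row cxcr1 (ENSDARG00000052088) had 3, 16 and 12 counts in wild type against 0, 3 and 5 counts in runx1 null, under the filter and not tested. The row CXCR1 (ENSDARG00000054975) had 10 to 17 counts in every library, or 0.531 ± 0.0568 and 0.555 ± 0.0706 CPM (SD, n = 3). The fitted log2 fold change was 0.06 (SE 0.43, edgeR adjusted p 0.977).

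CCR7, CCR9 and CCR8 overlapped between genotypes. CCR7, which guides T cells and dendritic cells along Ccl19, was at 2.85, 1.31 and 1.64 CPM in wild type against 2.93, 1.49 and 4.86 in runx1 null (log2 fold change 0.68, SE 0.56, edgeR adjusted p 0.811). CCR9 (ENSDARG00000055186), a receptor for Ccl25 that is known for the homing of lymphoid precursors to the thymus, was at 10.1, 7.83 and 4.59 CPM in wild type against 6.10, 13.6 and 10.8 in runx1 null. The edgeR log2 fold change was 0.43 (SE 0.43, edgeR adjusted p 0.816). The pools of the genotypes were intermixed for both genes, and the values were 0.19 for CCR7 without null pool 3 and 0.14 for CCR9 without null pool 2. CCR8, found in mammals on regulatory and TH2 T cells, was at 8.73 CPM in wild type pool 1 and at 1.98 to 6.70 CPM in the other 5 pools (log2 fold change 0.30, SE 0.60, edgeR adjusted p 0.897). The CCR8 value was 1.23 without wild type pool 1 and -0.05 without wild type pool 3. T and NK lymphocyte markers (10 of 12 matched) summed to 11.3 to 14.2 CPM in wild type against 15.8 to 25.3 in runx1 null, without overlap; the part of these cells in the receptor values was not tested.

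For ccr2 and ccr11.1, the runx1 null pools all lay above the wild type pools. ccr2, in mammals the receptor that lets monocytes leave the marrow, was at 0.675, 0.989 and 1.09 CPM in wild type against 1.32, 2.27 and 1.63 in runx1 null. The gap between the groups was small beside the spread of the null pools, and the log2 fold change was 0.91 (SE 0.44, edgeR adjusted p 0.811). ccr11.1 had 5, 16 and 20 counts in wild type against 21, 27 and 28 counts in runx1 null, or 0.494 ± 0.219 and 1.07 ± 0.174 CPM (SD, n = 3). Its log2 fold change was 1.09 (SE 0.52, edgeR adjusted p 0.811).

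The ccr12 genes are named in fish. ccr12a was at 2.12, 4.86 and 3.74 CPM in wild type against 0.957, 2.84 and 1.63 in runx1 null, and overlapped (log2 fold change -0.97, SE 0.54, edgeR adjusted p 0.811). ccr12b.2 was at 3.13, 1.62 and 1.25 CPM in wild type against 0.598, 16.6 and 0.816 in runx1 null. Only null pool 2 lay above wild type, and the others lay below it. The log2 fold change, 1.59 (SE 1.25, edgeR adjusted p 0.811), became -1.51 without null pool 2. ccr12b.1, its neighbour in the RefSeq order, had 38 counts in the same pool and at most 7 in the others. Both carried fractional counts, which mark reads that were divided between similar genes, so their separate levels are uncertain.

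The other tested receptors were low. ccr8.1 was between 0.579 and 1.11 CPM, with a log2 fold change of 0.37. CCR6 (ENSDARG00000087474), whose mammalian counterpart binds Ccl20, was at 0.530 to 0.554 CPM in wild type against 0.0598, 0.880 and 1.08 in runx1 null, where pool 1 had 1 count. The fitted log2 fold change was 0.33.

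Of the 5 atypical receptors 4 were tested, and 3 of these had a positive log2 fold change. ACKR4, which in mammals clears CCL19, CCL21 and CCL25, has a pair of rows. The row ENSDARG00000078729 had 5, 10 and 10 counts in wild type against 15, 23 and 30 counts in runx1 null, or 0.241, 0.395 and 0.304 CPM against 0.898, 0.778 and 1.11 CPM. Every null pool was at about the double of the highest wild type pool or above it. The edgeR log2 fold change was 1.55 (SE 0.46, edgeR adjusted p 0.811) and stayed between 1.39 and 1.74 with each library omitted in turn. The row ENSDARG00000040133 was at 4.58, 11.3 and 10.3 CPM in wild type against 13.5, 7.92 and 12.2 in runx1 null, and overlapped (log2 fold change 0.36, SE 0.42, edgeR adjusted p 0.833; 0.04 without wild type pool 1).

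ACKR3 (ENSDARG00000058179), the receptor that clears Cxcl12 and shapes its gradients, was at 13.5, 27.8 and 21.8 CPM in wild type against 38.2, 24.0 and 36.7 in runx1 null. Null pool 2 had a value between those of the wild type pools, and the log2 fold change was 0.65 (SE 0.35, edgeR adjusted p 0.811), or 0.40 without wild type pool 1. For ACKR2, which in mammals clears inflammatory CC chemokines, the pools were at 2.22 to 5.30 CPM in wild type against 2.51 to 3.72 in runx1 null (log2 fold change -0.22, SE 0.43, edgeR adjusted p 0.896). The second row named ACKR3 (ENSDARG00000062478) had 1 to 11 counts and was not tested.

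Among the CC ligands, the most even difference was that of ccl19a.1. Ccl19 is a ligand of Ccr7 that stromal cells of lymphoid tissue make to attract T cells and dendritic cells. ccl19a.1 (ENSDARG00000058389) was at 3.09, 3.76 and 2.77 CPM in wild type against 6.88, 9.13 and 8.75 in runx1 null. The pools of each genotype lay close together, with no overlap. The means were 3.20 ± 0.506 and 8.26 ± 1.21 CPM (SD, n = 3), 2.58-fold apart. The log2 fold change was 1.37 (SE 0.31, edgeR adjusted p 0.766, DESeq2 adjusted p 0.0446), and it stayed between 1.25 and 1.49 with each library omitted in turn. The related ccl19b was at 4.24, 1.38 and 0.547 CPM in wild type against 2.75, 1.56 and 11.9 in runx1 null (log2 fold change 1.41, SE 0.99, edgeR adjusted p 0.811). That value rested on null pool 3 and was 0.07 without it, whereas it was 2.47 without wild type pool 1.

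Ccl20, the ligand of Ccr6 in mammals, is made by epithelium and attracts lymphocytes and dendritic cells. ccl20a.3 had 5, 23 and 11 counts in wild type against 47, 33 and 59 in runx1 null, or 0.241, 0.910 and 0.334 CPM against 2.81, 1.12 and 2.19 CPM. The groups did not overlap, although null pool 2 was close to wild type pool 2. Its log2 fold change was 2.02 (SE 0.66, edgeR adjusted p 0.811), with 1.7 without wild type pool 1 and 2.79 without wild type pool 2. As given above, ccl20a.3 passed the filter only through the null pools. ccl20b was at 1.01, 3.56 and 1.88 CPM in wild type against 4.85, 4.60 and 5.12 in runx1 null, again with no overlap and with null pools that were closer together than the wild type pools. The fitted log2 fold change was 1.17 (SE 0.50, edgeR adjusted p 0.811), with 0.82 without wild type pool 1 and 1.73 without wild type pool 2.

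ccl25b belongs to the Ccl25 ligands that Ccr9 binds. It was at 9.31, 50.1 and 27.8 CPM in wild type against 69.8, 29.6 and 63.0 in runx1 null. Null pool 2 was between wild type pools 2 and 3, and wild type pool 1 was the lowest. The log2 fold change was 0.90 (SE 0.62, edgeR adjusted p 0.811), with 0.46 without wild type pool 1 and 1.54 without wild type pool 2. Kidney tubule markers had their lowest sum in the same wild type pool, as given above. Liver markers (8 of 8 matched; 8 of 8 with a positive log2 fold change) also had their lowest sum there, at 39.7 CPM, and their highest in null pools 1 and 3, at 14900 and 19600 CPM, with 1200 to 5300 CPM in the other 3 pools. The part of tubule or liver RNA in the ccl25b values was not tested.

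Several fish-specific CC ligands were tested as well. ccl33.3 was the CC ligand with the lowest fold change, at 1.06, 3.56 and 3.07 CPM in wild type against 1.26, 1.32 and 0.779 in runx1 null. Wild type pool 1 lay among the null pools, and the log2 fold change was -1.2 (SE 0.56, edgeR adjusted p 0.811). ccl34b.9 was at 7.48, 9.81 and 6.84 CPM in wild type against 15.3, 11.8 and 9.23 in runx1 null (log2 fold change 0.59, SE 0.31, edgeR adjusted p 0.811), with an overlap between wild type pool 2 and null pool 3.

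ccl36.1 was at 2.80 to 4.92 CPM in wild type against 4.75 to 6.09 in runx1 null (log2 fold change 0.57, SE 0.37, edgeR adjusted p 0.811). ccl34b.4, at 2.97 ± 2.03 and 3.17 ± 0.936 CPM (SD, n = 3), and ccl38.6, at 1.06 ± 0.577 and 1.04 ± 0.320 CPM (SD, n = 3), had log2 fold changes of 0.09 and -0.04. Both were smaller than their standard errors of 0.57 and 0.55. The 4 other CC ligands tested, ccl44, ccl34b.1, ccl38a.4 and ccl35.1, had group means of at most 1.2 CPM, with log2 fold changes between -0.33 and 0.60.

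**Figure D3:**
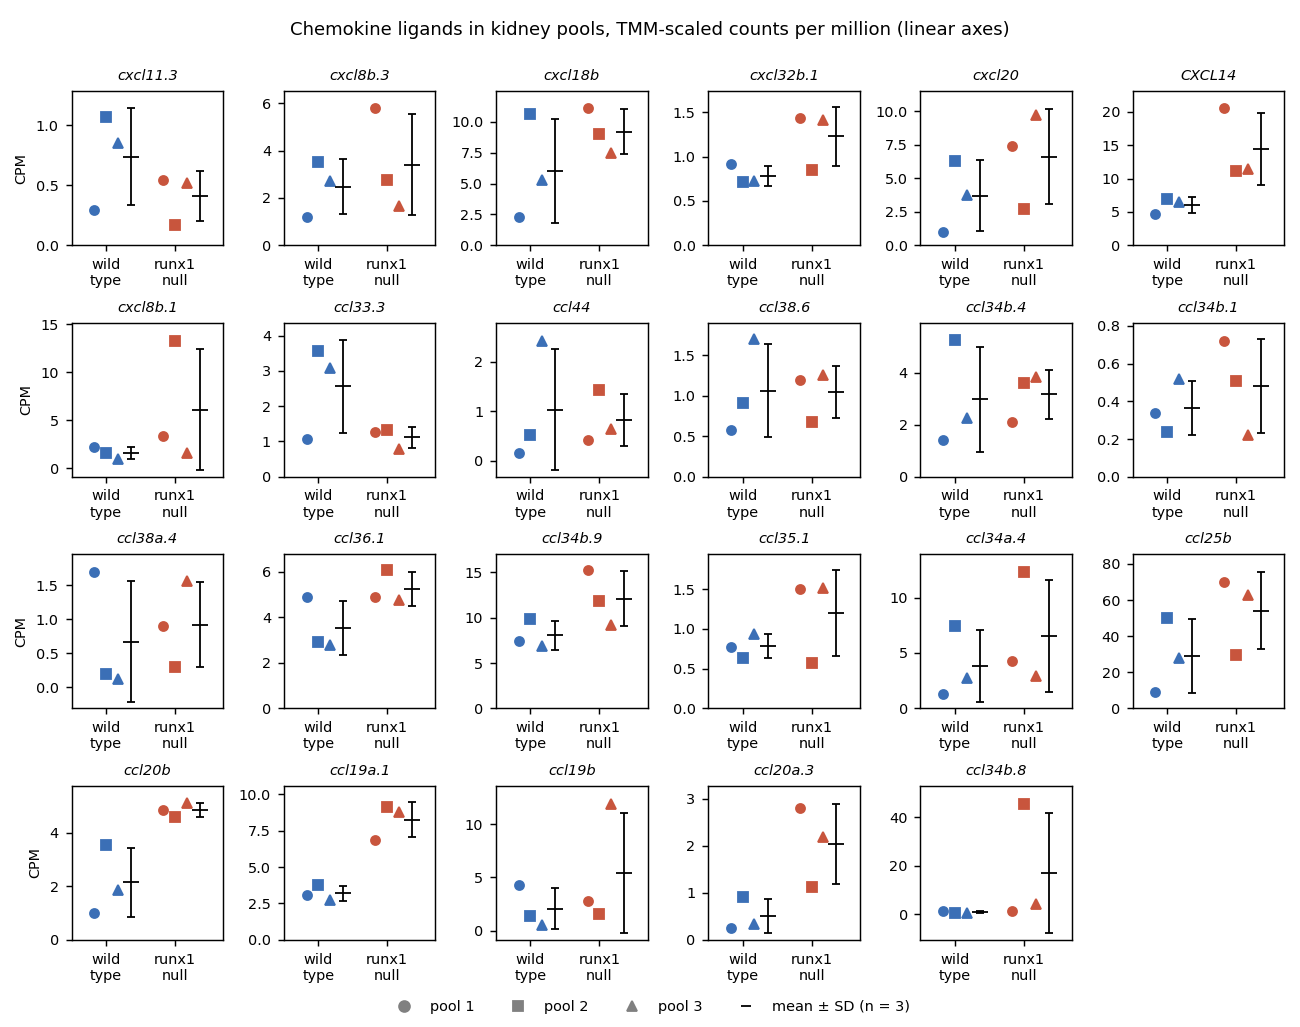
TMM-scaled CPM (linear axes) of the 7 tested CXC ligands, then the 16 tested CC ligands, with 1 symbol per pool and the mean ± SD of the 3 pools of each genotype in black. ccl19a.1, ccl20b, ccl20a.3 and CXCL14 have all 3 null pools above wild type, while for ccl34b.8 and cxcl8b.1 null pool 2 lies far above the rest, at 45.5 and 13.3 CPM.

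Of the 7 tested CXC ligands 6 had a positive log2 fold change. CXCL14, a ligand that epithelia make constitutively in mammals, was at 4.68, 6.96 and 6.54 CPM in wild type against 20.6, 11.1 and 11.5 in runx1 null. Its pools did not overlap, and null pool 1 was the highest. The means were 6.06 ± 1.21 and 14.4 ± 5.41 CPM (SD, n = 3; log2 fold change 1.25, SE 0.36, edgeR adjusted p 0.811). Omitting each library in turn gave 0.90 to 1.39.

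The ligands that attract neutrophils were uneven. Cxcl8 signals through Cxcr1 and Cxcr2, and in zebrafish infection Cxcl18b attracts neutrophils too. cxcl8b.1 was at 2.22, 1.62 and 0.942 CPM in wild type against 3.35, 13.3 and 1.63 in runx1 null. Null pool 3 had a value between those of the wild type pools, and the log2 fold change, 1.94 (SE 0.82, edgeR adjusted p 0.811), was 0.62 without null pool 2. cxcl8b.3, its neighbour, was highest in null pool 1 at 5.80 CPM and lay between 1.21 and 3.52 CPM in the other 5 pools (log2 fold change 0.45, SE 0.61, edgeR adjusted p 0.850; -0.17 without null pool 1 and 0.11 without wild type pool 1). cxcl8a had 3 to 5 counts in the wild type pools and 4, 35 and 19 counts in the null pools, under the filter.

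cxcl18b was at 2.27, 10.6 and 5.26 CPM in wild type against 11.1, 9 and 7.49 in runx1 null (log2 fold change 0.60, SE 0.55, edgeR adjusted p 0.813). cxcl20 was at 1.01, 6.29 and 3.74 CPM in wild type against 7.42, 2.71 and 9.71 in runx1 null (log2 fold change 0.84, SE 0.73, edgeR adjusted p 0.811). For both genes wild type pool 1 was the lowest of the 6 pools and the groups overlapped. Without that pool the values were 0.20 for cxcl18b and 0.38 for cxcl20, and without wild type pool 2 they were 1.28 and 1.46. cxcl32b.1 was at 0.786 ± 0.113 and 1.23 ± 0.333 CPM (SD, n = 3; log2 fold change 0.64, SE 0.44, edgeR adjusted p 0.811).

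The ligands of the CXCR3 group were scarce. Of the 7 cxcl11 genes among the members, 1 was tested. This was cxcl11.3, which had 6, 27 and 28 counts in wild type against 9, 5 and 14 counts in runx1 null (log2 fold change -0.87, SE 0.69, edgeR adjusted p 0.811). The other 6 had at most 11 counts in any library.

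Single pools set several of the largest differences. Among the 56 members with at least 10 counts in some library, 6 had 1 pool at more than 3 times the next highest. In 5 of the 6 this was runx1 null pool 2, for ccl34b.8, ccr12b.2, ccr12b.1, ccl34a.3 and cxcl8b.1, and for ccl39a.10 it was null pool 3. The genes were picked by this gap after their values were seen, so the count is a description.

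ccl34b.8 had 30, 16 and 16 counts in wild type against 19, 1344 and 109 counts in runx1 null, or 1.45, 0.633 and 0.486 CPM against 1.14, 45.5 and 4.04 CPM. Null pool 1 had a value between those of the wild type pools. The log2 fold change was 4.31 (SE 1.39, edgeR adjusted p 0.811, DESeq2 adjusted p 0.0234), and without null pool 2 it was 1.58. ccl34b.9, next to it in the RefSeq order, was at 11.8 CPM in null pool 2, between the values of the other 2 null pools. ccl34a.4 was at 12.3 CPM in null pool 2 and at 1.25 to 7.47 CPM in the other pools (log2 fold change 0.77, SE 0.80, edgeR adjusted p 0.821). The ccl34a.4 value was -0.13 without null pool 2 and 1.7 without wild type pool 2. Of the neutrophil markers, the matrix protease gene mmp9 was at 229 CPM in null pool 2 and at 3.11 to 28.2 CPM in the other 5 pools, while lyz was at 31.3 CPM there, the lowest of the 6. The part that this pool's state or cell makeup has in these values was not tested.

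**Figure D4:**
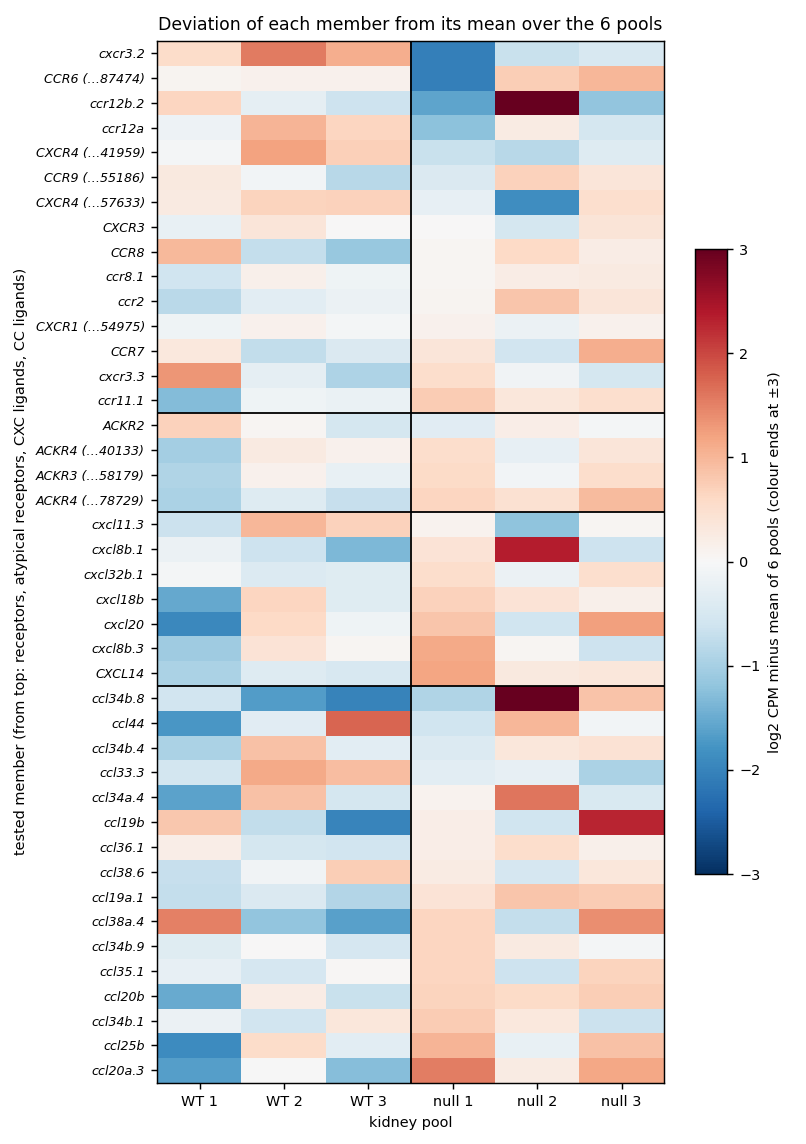
Deviation of log2 CPM (prior count 2) from the mean over the 6 pools, for the 42 tested members in rows and the pools in columns, with red above and blue below the mean and colour ends at ±3. Wild type pool 1 is blue for many ligands, and runx1 null pool 2 is dark red for ccr12b.2, ccl34b.8 and cxcl8b.1.

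Summed over all members of a role, the ligands were higher and the leukocyte receptors lower in runx1 null. The 48 ligands summed to 56.3, 126 and 80.6 CPM in wild type against 176, 174 and 162 in runx1 null. No null pool was as low as the highest wild type pool. Without ccl25b and ccl34b.8 the sums were 45.5, 75.8 and 52.3 CPM against 105, 99.3 and 95.3 CPM, so the groups still did not overlap. CXC ligands alone summed to 13.9, 32.3 and 21.7 CPM and to 51.9, 41.5 and 36 CPM, and CC ligands alone to 42.3, 94.2 and 58.9 CPM and to 124, 133 and 126 CPM.

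The 23 leukocyte receptors summed to 125, 146 and 104 CPM in wild type against 75.0, 92.7 and 80.1 in runx1 null. This gap rested on CXCR4 (ENSDARG00000041959), whose counts made up 29.1% to 59.7% of the sum in the wild type pools but 22.8% to 35.7% in the mutants. Without it the sums were 88.7, 58.9 and 42.1 CPM and 51.5, 71.5 and 51.5 CPM, and the groups overlapped. Stromal and endothelial markers (8 of 10 matched) summed to 173 to 843 CPM in wild type against 551 to 689 in runx1 null. These sums overlapped, with wild type pool 1 lowest, and col1a1a made up 697 of the 843 CPM in wild type pool 3. Of the 8 markers, 7 had a positive log2 fold change. The mean log2 CPM over the markers was 3.44, 4.51 and 4.44 in wild type against 4.76, 4.54 and 4.92 in runx1 null. These means did not overlap, though null pool 2, at 4.54, was barely above wild type pool 2, at 4.51. Taken singly, 0 of the 8 markers were without overlap. The part of stromal and endothelial RNA in the ligand sums was not tested.

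**Figure D5:**
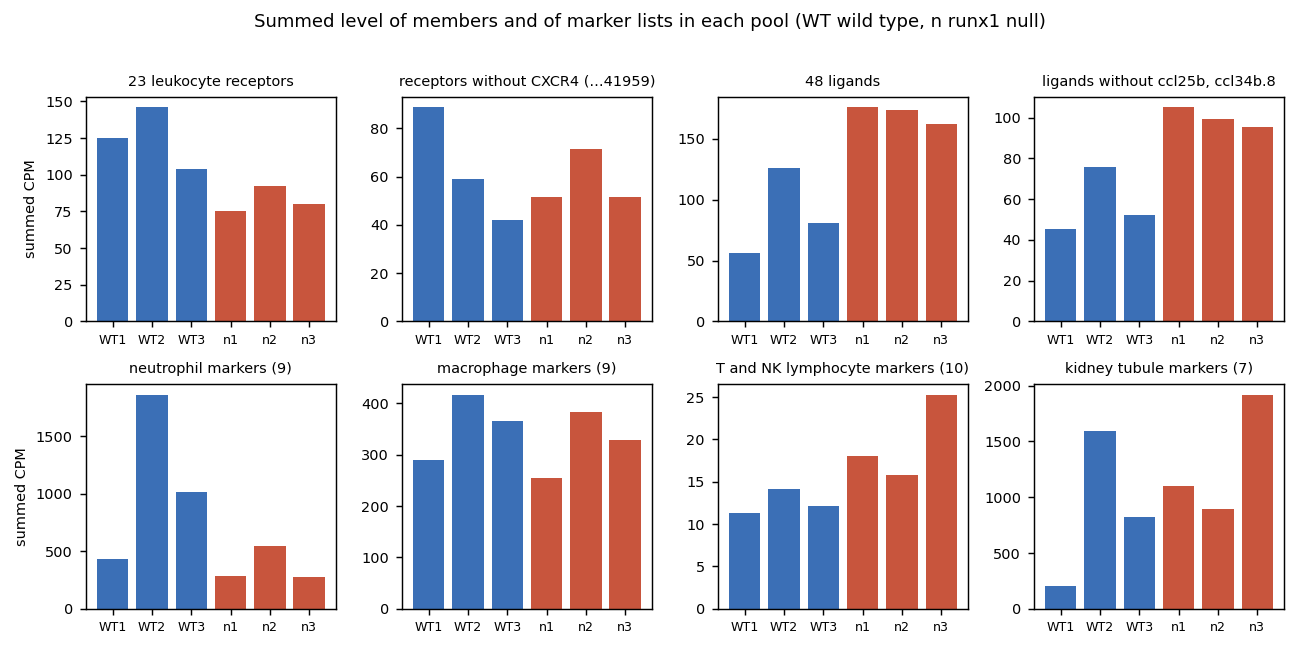
Bars give the summed CPM in each pool (linear axes from 0; WT wild type, n runx1 null) of all receptors and ligands, of the same sums without their leading genes, and of the matched markers of 4 cell types. The ligand sum is 162 to 176 CPM in the null pools and at most 126 CPM in wild type, and the receptor sums overlap once CXCR4 is taken out.

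Signalling genes downstream of the receptors were examined from 3 lists, of G protein subunits, of regulators that switch receptors off, and of effectors of migration. Of 32 genes matched, 28 were tested and 0 passed in edgeR, with a smallest adjusted p of 0.811. An unadjusted p-value under 0.05 was reached by 6, all lower in runx1 null (background in that direction 2.66%), and 0 of the 28 passed in DESeq2. The median log2 fold change was -0.37 over the 28, -0.39 over the 15 effectors, -0.64 over the 6 regulators and 0.23 over the 7 G protein subunits, against -0.03 over all genes. For 8 of the 28 the null pools all lay below wild type and for 2 all above, where the background is 6.24% of all genes in each direction.

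Among the effectors, coro1a, which encodes an actin regulator of leukocytes, was at 48.1, 108 and 70.2 CPM in wild type against 18.8, 32.9 and 31.4 in runx1 null (log2 fold change -1.45, SE 0.38, edgeR adjusted p 0.811). was, the Wiskott-Aldrich syndrome gene that drives actin branching in blood cells, was at 23.1, 27.2 and 19.0 CPM and at 11.7, 11.7 and 13.8 CPM (log2 fold change -0.89, SE 0.25, edgeR adjusted p 0.811). The Src-family kinase gene hck was at 15.8, 29.1 and 19.2 CPM in wild type against 9.63, 13.8 and 8.34 in runx1 null (log2 fold change -1.01, SE 0.34, edgeR adjusted p 0.811). None of these 3 genes overlapped between the genotypes, but they were picked for the smallest unadjusted p-values (edgeR) among the 15 effectors. Of those 15, 5 had all null pools below wild type and 1 had them all above. The latter was pik3r6a, at 4.58 to 5.73 CPM in wild type against 6.40 to 7.75 in runx1 null.

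Among the regulators of G protein signalling, which speed the switching off of G proteins, rgs14a was at 3.23, 5.77 and 8.21 CPM in wild type against 1.26, 1.22 and 2.19 in runx1 null (log2 fold change -1.88, SE 0.49, edgeR adjusted p 0.811). rgs13, at -1.49 (SE 0.45), and rgs18, at -0.80 (SE 0.39), also had all null pools below wild type, each with an edgeR adjusted p of 0.811. These regulators were likewise picked for the smallest unadjusted p-values (edgeR) of their list, as were gng12a, gnb2 and gnai1 below. Of the G protein subunit genes, gng12a had the largest log2 fold change, 1.01 (SE 0.52, edgeR adjusted p 0.811), and was higher in every null pool. gnb2 and gnai1 followed at 0.49 and 0.26 and overlapped. Without wild type pool 1, the lowest of the 6 for all 3 genes, the values were 0.59 for gng12a, 0.14 for gnb2 and 0.06 for gnai1. The subunit list was split, with 4 of 7 genes positive and 3 negative, of which gnai3 was lowest at -0.49 (SE 0.60).

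The 34 members below the expression filter comprised 8 leukocyte receptors, 25 ligands and 1 atypical receptor. Of these, 3 had 0 counts in every library, namely ccl33.2, ccl39.6 and XCR1 (ENSDARG00000052988), a row for the XC class receptor, and 11 had at most 3 counts in any library. Among the receptors, CXCR5, which guides B cells to follicles in mammals, had 3, 11 and 5 counts in wild type against 4, 7 and 0 in runx1 null. ccr10 had 1 count in each wild type pool and 0, 9 and 22 in the null pools. ccl19a.2, the neighbour of ccl19a.1, had 43 counts in wild type pool 1, 49 in null pool 3 and at most 6 elsewhere, so it did not share the even pattern of ccl19a.1. ccl39a.10 had 49 counts in null pool 3 and at most 5 in any other library.

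Fractional estimated counts, taken as those at least 0.01 away from a whole number, appeared in at least 1 library for 10 of the 76 members, including ccr2, ccr12b.1, ccr12b.2, cxcl11.3 and ccl35.1. Reads of these genes were divided between similar sequences, so their single values are less certain than those of CXCR4, cxcr3.2, ccl19a.1 or CXCL14, whose counts were whole in all 6 libraries. In the RefSeq gene order of assembly GRCz12tu, 53 members were found by a unique symbol, and 27 of them lay in 11 runs of directly neighbouring members, such as the run of cxcl11.4, cxcl11.3, cxcl11.1 and cxcl20.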

How the data were processed

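The authors deposited 1 table of expected counts per library, unscaled, for 32266 Ensembl zebrafish genes. STAR, RSEM and DESeq2 and the build GRCz10 are named in the submitters' processing notes; annotation release and strand setting are not given in the sources used here. Symbols came from a table covering 26433 of the genes. Expected counts were rounded, filtered with filterByExpr (minimum count 10), scaled by TMM and fitted in edgeR 4.0.16 (R 4.3.3) by the quasi-likelihood F test with genotype as the sole term; p-values were adjusted over all 18864 genes, threshold 0.05. A standard error is the log2 fold change divided by the square root of F. DESeq2 1.42.0 (Wald test, independent filtering off) was an alternative. Both fits were also run on counts simulated from the means and dispersions of the edgeR fit, and the outcome is not given here. Members with a mean of at least 1 CPM, or no overlap and an absolute log2 fold change of at least 1, are named with full statistics. The members and lists were chosen with earlier results of these data known. Total expected counts per library, 16147770 to 30577328, and 3 pools per group limit the precision.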

Additional observations from a re-analysis of the deposited data

How the results depend on the processing

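The count of members past the threshold was 0 in all edgeR alternatives and 3 in the DESeq2 Wald test, and that of the signalling genes was 0 throughout. In the edgeR comparison of all 6 libraries, an unadjusted p-value under 0.05 was found for 987 of all genes, 7 of them members. No scaling moved the median of all genes by more than 0.03 on the log2 scale.

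Without the filter on low counts the receptor median was -0.02 over 22 genes, and 6 ligands were higher at an unadjusted p-value under 0.05, as also in DESeq2, where 2.40% and 3.34% of all genes were. With each library omitted in turn, the receptor median ran from -0.06 (without null pool 3) to 0.24, the ligand median from 0.46 (without wild type pool 1) to 0.79 (without wild type pool 2) and the atypical receptor median from 0.37 to 0.90 (without wild type pool 2). These fits tested 15 or 16 receptors and 25 to 27 ligands. Receptors with all null pools below wild type numbered 2 to 5, against 8.55% to 13.9% of all genes. Ligands with all null pools above numbered 4 to 10, against 9.46% to 13.8%. Receptors at an unadjusted p-value under 0.05 and lower numbered 2 to 3, against 1.31% to 4.57% of all genes. Ligands at that p-value and higher numbered 2 (without wild type pool 3, against 1.87% of all genes) to 7. The counts of 5, 10 and 7 came without wild type pool 1, where 12.2% and 11.3% of all genes had no overlap, lower and higher, and 2.75% were higher at that p-value. Without null pool 2 there were 4 such receptors and 8 such ligands, against 13.9% and 13.8% of all genes. Without wild type pool 1 and runx1 null pool 2 together, a choice made after seeing the data, 5 receptors and 12 ligands had no overlap, against 20.1% and 21.1% of all genes, and 3 receptors and 6 ligands had an unadjusted p-value under 0.05, lower and higher, against 3.97% and 5.65%. In that fit ccl34b.4 was -0.35, ccl34a.4 -0.52, cxcr3.3 0.64, CXCR3 0.00, ccr12b.2 -1.01 and gnai1 -0.01.

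Same-numbered pools hold different fish, and their deviations from the group means correlated at 0.094, -0.364 and 0.456. With the replicate block 0 genes passed, ligands at an unadjusted p-value under 0.05 and higher numbered 2 (1.91% of all genes), ccr12b.2 was 0.02, ccl34b.8 3.00, cxcl8b.1 1.45 and ccl38.6 0.03, and the receptor median was 0.02.

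With each library omitted in turn, the log2 fold changes of these genes changed sign: ACKR2 ran from -0.48 to 0.14, ccl34b.4 from -0.26 to 0.79, cxcr3.3 from -0.71 to 0.57, CXCR3 from -0.33 to 0.11, ccl38.6 from -0.34 to 0.48, CCR8 from -0.05 to 1.23, cxcl8b.3 from -0.17 to 0.79, ccl34a.4 from -0.13 to 1.7 and ccr12b.2 from -1.51 to 2.13. The cause of these changes of sign was not tested.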
